A study of Bos taurus with 6 samples.

Results

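The miR-15/16 family was examined in small RNA of extracellular vesicles (EVs) that bovine granulosa cells had released into culture medium. Members were taken by identifier, and all 8 were among the 512 miRNAs listed for each library, namely bta-miR-15a, bta-miR-15b, bta-miR-16a, bta-miR-16b, bta-miR-195, bta-miR-497, bta-miR-424-5p and bta-miR-503-5p. Granulosa cells, the somatic cells that line the follicle and support the oocyte, came from small antral follicles of slaughterhouse ovaries and were grown in DMEM-F12 medium with exosome-depleted fetal bovine serum. All cultures started at 37 °C, after which the control-EVs group stayed at 37 °C and the HS-EVs group was held at 42 °C (heat stress, HS), in both cases for 24 h, with 3 libraries in each group. EVs were precipitated from the spent medium of both groups with ExoQuick-TC. The series names the libraries biological replicates, but no animal or pool of follicles is tied to a library, and the p-values measure only the spread between these libraries.

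miR-15 and miR-16 bind mRNAs through a seed that the family shares and lower the output of genes that drive the G1 phase, among them cyclins D and E and CDK6, and of the anti-apoptotic gene BCL2. Several of these genes are also controlled by miR-195, miR-497, miR-424 and miR-503, the last of which is usually counted as an extended member. The genes lie in pairs that are made from common precursors. Among the bovine RefSeq genes of ARS-UCD2.0, MIR15A and MIR16A are direct neighbours within a long locus beside KCNRG. MIR15B and MIR16B lie next to each other within SMC4, a condensin subunit gene, between TRIM59 and IFT80. A further pair, MIR195 and MIR497, lies within another uncharacterised locus beside BCL6B, while MIR424 and MIR503 neighbour each other without a host gene, near PLAC1. In body fluids miR-16 is an abundant miRNA that red cells also carry.

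The values are deposited normalized read counts, from which the reads behind them could be recovered (100% whole multiples of 1 read, within 0.01 reads). Libraries held 274434 to 2360980 reads, but bta-miR-1246 took 59.9% to 98.6% of them, which left 34141 (HS-EVs replicate 1) to 235634 reads (control-EVs replicate 2) on all other miRNAs. 1 read thus stood for 4.11 normalized counts in HS-EVs replicate 1, compared with 0.697 to 1.98 elsewhere. The floor of 3 reads therefore stood at 12.3 normalized counts in HS-EVs replicate 1. In all 6 libraries the recovered total was above the number of reads on annotated miRNAs that the study lists for it. The cause was not tested, and the floors and counting intervals rest on the recovered reads.

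All 8 members were detected in both groups with normalized read counts no lower than 10 in 2 or 3 libraries of each, a level that 34.8% of the 512 miRNAs reached. Their levels ranged over more than 2 orders of magnitude and fell in the order bta-miR-16b, bta-miR-16a, bta-miR-195, bta-miR-15a, bta-miR-497, bta-miR-424-5p, bta-miR-15b and bta-miR-503-5p. bta-miR-16b held place 10 among the 512 miRNAs by mean normalized count, bta-miR-16a place 28 and bta-miR-195 place 39, whereas bta-miR-503-5p held place 167. The order was the same in all 6 libraries at every step except that between bta-miR-424-5p and bta-miR-15b, which held in 5 of 6. The steps were unequal. bta-miR-16b exceeded bta-miR-16a by 5.45-fold on average (4.04- to 7.37-fold over the 6 libraries), bta-miR-195 exceeded bta-miR-15a by 3.38-fold, and bta-miR-15b exceeded bta-miR-503-5p by 3.31-fold. The remaining neighbours differed by 1.38- to 1.64-fold, and bta-miR-424-5p to bta-miR-15b ranged from 0.711 in HS-EVs replicate 3 to 2.09, so that this pair did not differ beyond its spread. Levels of mature miRNAs in 1 library also depend on how well each sequence is ligated, so the order describes reads.

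**Figure D1:**
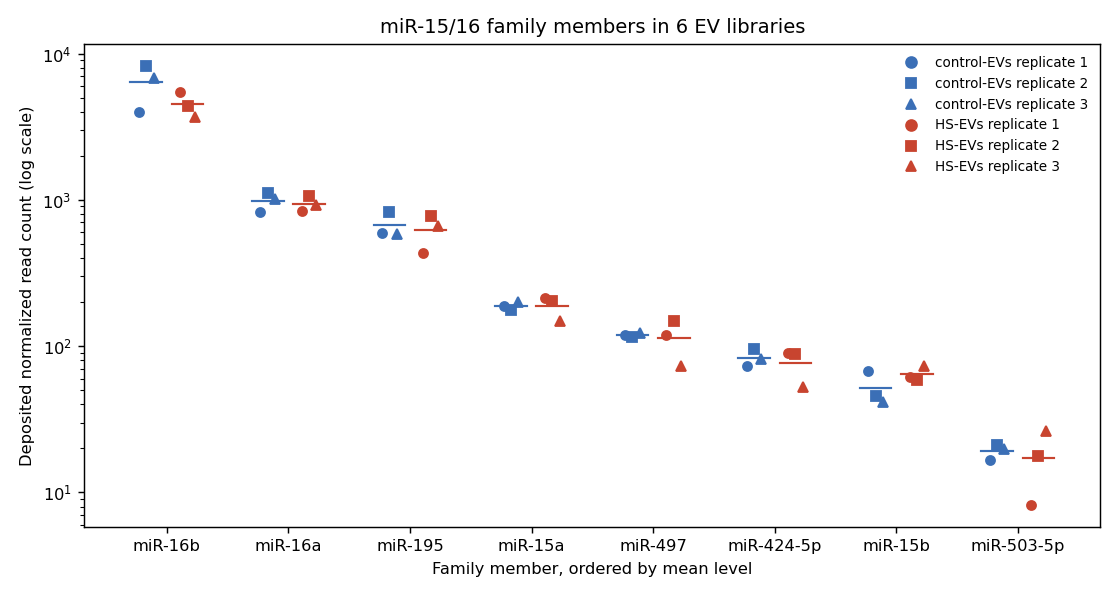
Deposited normalized read counts (log axis) of the 8 members in each library, with blue for control-EVs, red for HS-EVs, marker shapes for replicate numbers and short lines for group means (n = 3). The members step down from bta-miR-16b (3710 to 8226) to bta-miR-503-5p (8.22 to 26.1), and the libraries of both groups overlap for all 8.

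Heat stress was compared with control through each member's normalized counts and with limma over all 512 miRNAs. bta-miR-16b, the most abundant member, had 4000, 8226 and 6788 normalized counts in the control-EVs libraries (replicates 1 to 3, the order used throughout) and 5469, 4412 and 3710 in those of HS-EVs. Control-EVs replicates 2 and 3 lay above every HS-EVs library, but control-EVs replicate 1 lay below HS-EVs replicates 1 and 2, so the groups overlapped. Group means were 6338 ± 2149 for control-EVs and 4530 ± 886 for HS-EVs (SD, n = 3 each), with a log2 fold change of -0.44 (SE 0.47, 95% interval -1.49 to 0.61, limma adjusted p = 0.873). It was -0.74 without control-EVs replicate 1 (limma adjusted p = 0.555) and -0.22 without control-EVs replicate 2. Counting error was small beside this spread, since the shallowest library still held 1331 reads of bta-miR-16b.

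bta-miR-16a, its nearly identical paralog, had 830, 1116 and 1020 normalized counts in control-EVs and 834, 1055 and 919 in HS-EVs. The 3 HS-EVs libraries all fell within the range of the controls. Its log2 fold change was -0.07 (SE 0.43, limma adjusted p = 0.972), with a 95% interval of -1.02 to 0.88. Because the mature sequences of both miR-16 species differ so little, the mapping could divide reads between them, and their separate values are uncertain to that extent. Summed, bta-miR-16a and bta-miR-16b had 4829, 9341 and 7807 normalized counts in control-EVs and 6303, 5467 and 4629 in HS-EVs, again with overlapping groups.

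bta-miR-15a and bta-miR-15b, the partners of the miR-16 species in their clusters, were far less abundant. bta-miR-15a had 189, 178 and 200 normalized counts in control-EVs and 214, 202 and 148 in HS-EVs, and the group means of 189 ± 10.9 and 188 ± 34.9 (SD, n = 3) nearly coincided. The 95% interval of its log2 fold change ran from -0.98 to 0.93. bta-miR-15b had 67.9, 45.3 and 41.5 normalized counts in control-EVs and 61.6, 58.3 and 73.3 in HS-EVs. It was the only member with a higher mean in HS-EVs on the log2 scale, by 0.34 (SE 0.44, 95% interval -0.64 to 1.32, limma adjusted p = 0.873), and control-EVs replicate 1 overlapped the HS-EVs range. Its log2 fold change was 0.55 without control-EVs replicate 1 (limma adjusted p = 0.576) and 0.20 without control-EVs replicate 3. HS-EVs replicate 1 rested on 15 reads of bta-miR-15b, whose exact 95% Poisson interval, covering counting error only, was 34.5 to 102 normalized counts.

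bta-miR-195 and bta-miR-497, a pair known for restraining cyclin D1 and cell cycle entry, were read at 583 to 828 and 115 to 123 normalized counts in control-EVs. In HS-EVs, bta-miR-195 had 436, 780 and 663 and bta-miR-497 had 119, 150 and 73.3 normalized counts. The 3 control-EVs libraries of bta-miR-497 lay close together while those of HS-EVs ranged on both sides of them. Log2 fold changes were -0.12 for both (SE 0.45 for bta-miR-195 and 0.46 for bta-miR-497), and both intervals spanned 0.

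bta-miR-424-5p and bta-miR-503-5p, whose cluster is known for slowing the G1 to S transition through CDC25A and cyclins, were the rarest pair. bta-miR-424-5p had 73.4, 94.8 and 81.0 normalized counts in control-EVs and 90.4, 88.0 and 52.2 in HS-EVs. Only HS-EVs replicate 3 lay outside the range of the controls. bta-miR-503-5p had 16.5, 20.9 and 19.8 normalized counts in control-EVs and 8.22, 17.6 and 26.1 in HS-EVs, and the lowest of these values stood for 2 reads, under the floor. The Poisson interval of that library (0.995 to 29.7 normalized counts) covered all 5 other values. Of the opposite arms, bta-miR-503-3p had 16.5, 12.6 and 1.98 normalized counts in control-EVs and 8.22, 7.70 and 8.15 in HS-EVs, equal to bta-miR-503-5p in replicate 1 of both groups and below it in the other libraries. Its values in control-EVs replicate 3 (1 read) and HS-EVs replicate 1 (2 reads) were under the floor. bta-miR-424-3p had at most 3 reads in any library.

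None of the 8 members passed the threshold for EVs of an adjusted p no higher than 0.3 and a log2 fold change of at least 1 in either direction (limma, smallest adjusted p of a member 0.873). Over all miRNAs limma called 0 of 512 (0%), the smallest adjusted p being 0.408. At an unadjusted p of 0.05 or less there were 0 members against 25 miRNAs in all (4.88%), and the groups were fully separated for 0 members against 33 of 512 (6.45%). On recovered reads, the quasi-likelihood test of edgeR called 3 of the 512 (0.586%) and DESeq2 called 0, none of them a member. The 95% intervals reached below -1 on the log2 scale in 6 members, all but bta-miR-15a and bta-miR-15b, and above 1 in bta-miR-15b alone. A 2-fold decrease in those 6 members and a 2-fold increase in bta-miR-15b were thus not excluded by these libraries.

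On the deposited scale 7 members were lower and 1 was higher in HS-EVs (median log2 fold change -0.12, against 0.01 over the 512, of which 256 were higher), but after scaling by reads on all miRNAs but bta-miR-1246 the split was 5 lower and 3 higher, and scaled by all reads 8 were lower. Without HS-EVs replicate 1, or without HS-EVs replicate 3, the split was 4 lower and 4 higher, with a median for the members of -0.06 and 0.02. The first of the scalings moved the median of all 512 to 0.09 and that of the members to -0.01. Scaling by all reads moved the median of all to -0.74 and that of the members to -1.60, since the share of bta-miR-1246 then enters every value. That share was 84.6%, 59.9% and 73.2% in control-EVs and 98.6%, 75.6% and 84.5% in HS-EVs.

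**Figure D2:**
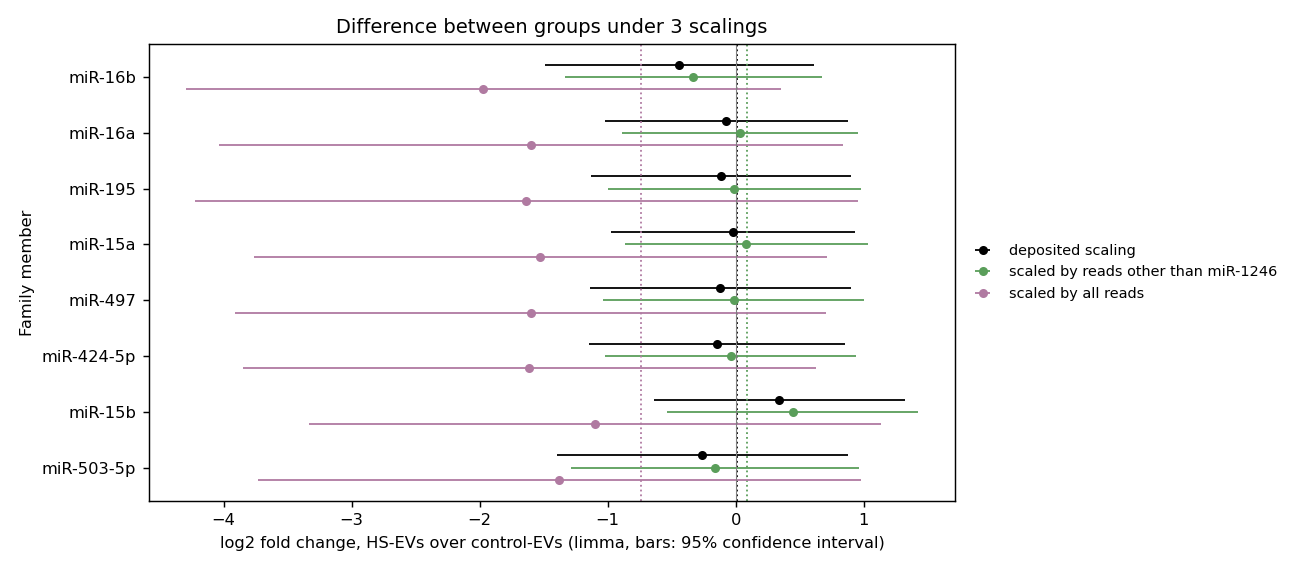
Log2 fold change of each member (HS-EVs over control-EVs, points) with its 95% confidence interval from limma (bars, 3 libraries per group) under 3 scalings; dotted lines mark the median of all 512 miRNAs under each. Every interval spans 0, and scaling by all reads moves the points from between -0.44 and 0.34 to between -1.97 and -1.10.

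As a whole the family took 4.19%, 6.47% and 6.09% of the reads other than bta-miR-1246 in control-EVs and 5.16%, 4.98% and 4.01% in HS-EVs. The mean share was 5.58% ± 1.22 (SD, n = 3) and 4.71% ± 0.617 (SD, n = 3). Wilson 95% intervals of single libraries were narrow (4.93% to 5.39% in HS-EVs replicate 1), and the spread between libraries was wider than counting error. Of all reads the family took 0.644%, 2.59% and 1.63% in control-EVs and 0.0745%, 1.21% and 0.623% in HS-EVs.

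Summed over the 8 members, normalized counts were 5890, 10624 and 8854 in control-EVs and 7232, 6762 and 5666 in HS-EVs. The log2 difference was -0.33, within the spread of the groups (SD of log2 values 0.44 and 0.18, n = 3). It was -0.57 without control-EVs replicate 1 and -0.15 without control-EVs replicate 2. Most of it came with bta-miR-16b, for the 7 other members summed to 1891, 2398 and 2067 in control-EVs and to 1763, 2351 and 1956 in HS-EVs, a log2 difference of -0.07. By cluster, the log2 difference was -0.43 for miR-15b/16b, -0.06 for miR-15a/16a, -0.11 for bta-miR-195/bta-miR-497 and -0.12 for bta-miR-424/bta-miR-503. All 4 clusters overlapped between groups. The difference of miR-15b/16b was -0.73 without control-EVs replicate 1 and -0.22 without control-EVs replicate 2. Normalized counts are relative to the other miRNAs of a library, and a change in the number of EVs and a change in the amount of a miRNA per EV cannot be told apart from them.

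Within a library, composition does not depend on scaling. bta-miR-16b made up 67.9%, 77.4% and 76.7% of the family's reads in control-EVs and 75.6%, 65.2% and 65.5% in HS-EVs. The values fell near 2 levels that did not follow the temperature, with control-EVs replicate 1 beside HS-EVs replicates 2 and 3 and HS-EVs replicate 1 beside control-EVs replicates 2 and 3. Because shares sum to 100%, the summed share of the other members is higher where that of bta-miR-16b is lower. bta-miR-195 took 10.1% in control-EVs replicate 1 and 11.5% and 11.7% in HS-EVs replicates 2 and 3, against 7.80%, 6.58% and 6.02% in the others. For bta-miR-16a the shares were 14.1%, 15.6% and 16.2% against 10.5%, 11.5% and 11.5%. In normalized counts, by contrast, both were highest in control-EVs replicate 2 (828 and 1116). bta-miR-31 and bta-miR-378, from the granulosa-linked list and picked for this after their values were seen, divided the libraries in the same way. bta-miR-31 had 1375, 789 and 862 normalized counts in control-EVs and 879, 1604 and 1905 in HS-EVs. bta-miR-378 had 5551, 1547 and 1020 in control-EVs and 2539, 3122 and 3565 in HS-EVs. The division was not particular to granulosa-linked miRNAs, since bta-miR-34a, bta-miR-221, bta-miR-26a, bta-miR-103 and bta-miR-125b of the cell cycle list, also picked after their values were seen, divided the libraries likewise. The rest of the 23 miRNAs on that list did not, and the share over the 512 was not computed. bta-miR-221 had 3032, 1966 and 1759 normalized counts in control-EVs and 2174, 2898 and 4740 in HS-EVs. Other granulosa-linked miRNAs behaved differently. bta-miR-202 divided the libraries in the same way but in the opposite direction (1672, 1473 and 1015 normalized counts against 1965, 1879 and 2087), while bta-miR-21-5p, bta-miR-224 and bta-miR-132 did not divide the libraries in this way, and bta-miR-212 and bta-miR-383 were near 0. The liver and serum marker bta-miR-122 shared that opposite direction (12232, 9840 and 7524 against 25400, 21350 and 13633). So did the muscle marker bta-miR-133a (123, 68.2 and 103 against 262, 170 and 399), both picked after their values were seen. Their part in the composition was not tested.

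**Figure D3:**
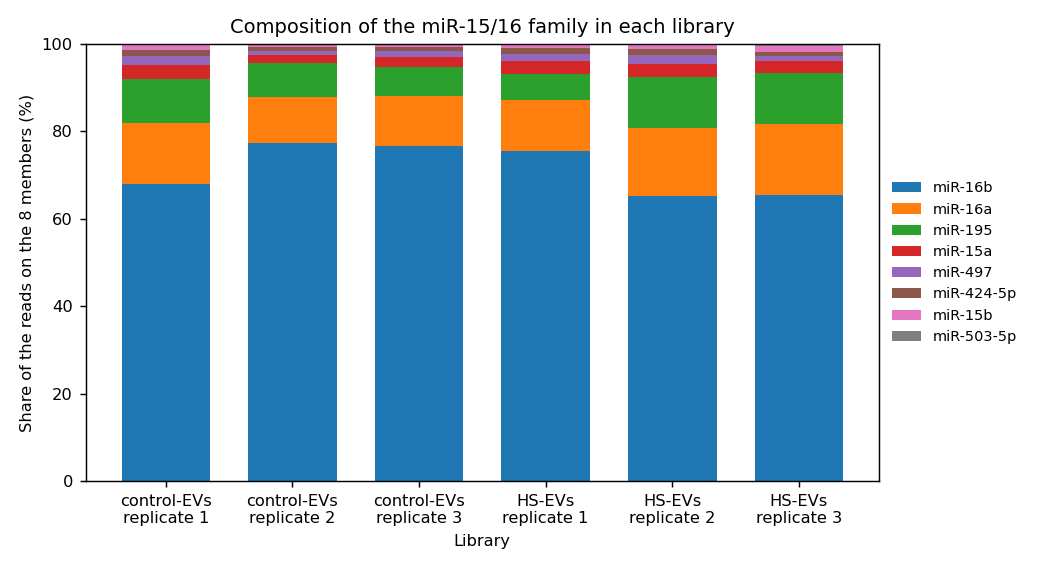
Share (%) of the reads on the 8 members that each member took in each library, as stacked bars that sum to 100%. bta-miR-16b fills 65.2% to 67.9% of the bar in control-EVs replicate 1 and HS-EVs replicates 2 and 3, and 75.6% to 77.4% in the other 3 libraries.

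The miR-15b/16b cluster as a whole took 66.1% to 77.9% of the family's reads, miR-15a/16a 12.2% to 18.8%, bta-miR-195/bta-miR-497 7.67% to 13.7% and bta-miR-424/bta-miR-503 1.09% to 1.56%. Each cluster's shares overlapped between groups, and so did those of the single members. bta-miR-15b, although it lies beside bta-miR-16b, supplied only 0.427% to 1.29%.

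Partners from 1 cluster were read in unequal numbers. bta-miR-16b exceeded bta-miR-15b by 58.9-, 181- and 164-fold in control-EVs and by 88.7-, 75.7- and 50.6-fold in HS-EVs. The log2 ratio of bta-miR-15b to bta-miR-16b was higher in HS-EVs by 0.79, but control-EVs replicate 1 lay inside the HS-EVs range (exact permutation test, two-sided, p = 0.3, Benjamini-Hochberg adjusted over 5 ratios 0.667). The difference was 1.30 without control-EVs replicate 1 and 0.49 without control-EVs replicate 2. With 3 libraries against 3 the smallest p is 0.1. In the other miR-15/16 cluster the excess was modest, since bta-miR-16a exceeded bta-miR-15a by 3.90- to 6.27-fold and the log2 ratio differed between groups by 0.05 (exact permutation p = 0.9, adjusted 1). bta-miR-195 exceeded bta-miR-497 by 3.66- to 9.04-fold. Both of these extremes were HS-EVs libraries, replicates 1 and 3, while the group means were alike (exact permutation p = 1).

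Between clusters, bta-miR-16b exceeded bta-miR-16a by 4.82-, 7.37- and 6.66-fold in control-EVs and by 6.56-, 4.18- and 4.04-fold in HS-EVs. The log2 ratio of bta-miR-16a to bta-miR-16b was thus 0.37 higher in HS-EVs, with overlapping groups (exact permutation p = 0.2, adjusted 0.667). The difference ran from 0.24 (without control-EVs replicate 2) to 0.59 (without HS-EVs replicate 1) as libraries were left out. The mapping could divide reads between these nearly identical miRNAs, and their ratio is uncertain to that extent. bta-miR-15a exceeded bta-miR-15b by 2.02- to 4.81-fold, and this log2 ratio was lower in HS-EVs by a difference of -0.37 (exact permutation p = 0.4, adjusted 0.667), or -0.58 without control-EVs replicate 1 and -0.11 without HS-EVs replicate 3. The ratio of bta-miR-424-5p to bta-miR-503-5p was not computed, since HS-EVs replicate 1 had 2 reads of the latter.

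**Figure D4:**
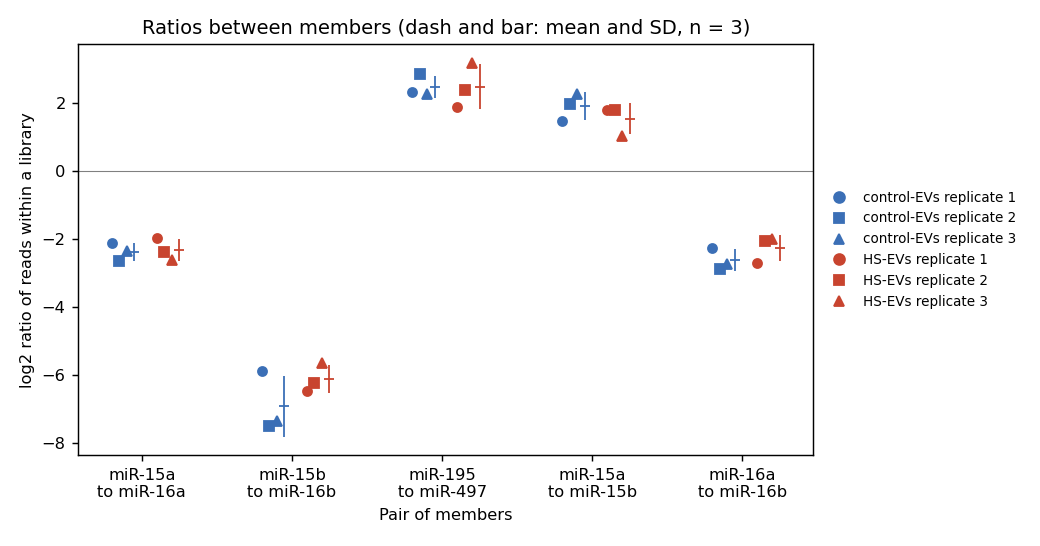
Log2 ratio of reads between pairs of members within each library, with blue for control-EVs, red for HS-EVs, marker shapes for replicate numbers and a dash with a bar for the group mean and SD (n = 3). The groups overlap in all 5 pairs, and bta-miR-15b to bta-miR-16b ranges most widely, from -7.50 to -5.66.

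Profiles across the 6 libraries were compared as the root mean square difference of log2 normalized counts after each miRNA was centred on its own mean, a description over 6 libraries that share their scaling. Of the 28 pairs of members, the closest were bta-miR-497 with bta-miR-424-5p (0.17), bta-miR-15a with bta-miR-497 (0.18) and bta-miR-15a with bta-miR-424-5p (0.18), which lie in different clusters. Cluster partners held places 5 (bta-miR-15a and bta-miR-16a, 0.25), 15 (bta-miR-195 and bta-miR-497, 0.42), 26 (bta-miR-15b and bta-miR-16b, 0.69) and 28 (bta-miR-424-5p and bta-miR-503-5p, 0.72). In the last of these pairs HS-EVs replicate 1 rested on 2 reads of bta-miR-503-5p.

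Outside the family, 123 miRNAs had 10 or more reads in every library. The 5 most like the summed family were bta-miR-199a-3p (0.05), bta-miR-27b (0.08), bta-miR-507b (0.12), bta-miR-24-3p (0.14) and bta-miR-760-3p (0.19). bta-miR-199a-3p had 670, 1213 and 1051 normalized counts in control-EVs and 805, 724 and 658 in HS-EVs. As in the summed family and in bta-miR-16b, control-EVs replicates 2 and 3 were the highest libraries and control-EVs replicate 1 lay among those of HS-EVs. The 7 other members together differed from this, with HS-EVs replicate 2 (2351) above control-EVs replicate 3 (2067).

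Other miRNAs known to act on the cell cycle or on BCL2 and its relatives, such as the miR-34 and miR-17 families, miR-221 and let-7a, formed a list of 23, all of which were listed in the libraries. With limma, 14 were higher and 9 were lower in HS-EVs, 0 were called, and the median log2 fold change was 0.30 against 0.01 over the 512. At an unadjusted p of 0.05 or less there were 2 of 23, both higher, beside 4.88% of the 512, and 3 of 23 had fully separated groups, beside 6.45%. bta-miR-29b, which acts on CDK6 and MCL1, had 44.1, 25.8 and 43.5 normalized counts in control-EVs and 90.4, 67.1 and 116 in HS-EVs, every HS-EVs library lying above every control. Its log2 fold change was 1.25 (SE 0.46, limma adjusted p = 0.870). bta-miR-181a, a miRNA that acts on BCL2, had 11.0, 10.5 and 1.98 in control-EVs and 20.5, 20.9 and 27.7 in HS-EVs (log2 fold change 1.68, SE 0.60, limma adjusted p = 0.785). The 1.98 in control-EVs replicate 3 was 1 read, under the floor of 5.93 there, and HS-EVs replicate 1 had 5 reads. bta-miR-365-3p, also without overlap, was picked after its values were seen and had 15.3 to 25.7 normalized counts in control-EVs and 9.78 to 12.3 in HS-EVs, which is the floor in HS-EVs replicate 1.

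miRNAs of other cells that the EV pellet could hold were read beside the family. Of the red cell markers 3 of 3 were present, with summed normalized counts of 561 to 1283 in control-EVs and 320 to 822 in HS-EVs, and all 3 had negative log2 fold changes with none called, although the mean of bta-miR-451 was 29.3 in control-EVs and 29.9 in HS-EVs. bta-miR-451, the defining red cell miRNA, had 14.7 to 57.5 normalized counts, and bta-miR-16b was 95.1- to 319-fold higher. bta-miR-486, which made up most of the red cell sum, had 299 to 1226 normalized counts, and bta-miR-16b was only 3.26- to 14.7-fold higher. bta-miR-122, a liver miRNA abundant in serum, had 12232, 25400 and 21350 normalized counts in control-EVs and 13633, 9840 and 7524 in HS-EVs, so that control-EVs replicates 2 and 3 stood highest as for bta-miR-16b. White cell and platelet markers (4 of 4 present) summed to 221 to 340 in control-EVs and 269 to 362 in HS-EVs. Within that list bta-miR-150 was fully separated, at 18.1 to 29.4 in control-EVs and 31.9 to 66.8 in HS-EVs, beside 6.45% of the 512. Muscle markers (3 of 3) summed to 522 to 969 and 227 to 1578, and epithelial markers (5 of 5) to 12.8 to 18.8 and 8.22 to 17.6. Granulosa-linked miRNAs (8 of 8) summed to 13818 to 18434 in control-EVs and 11928 to 19966 in HS-EVs, with bta-miR-202 at 1015 to 2087, while bta-miR-212 and bta-miR-383 had at most 1 read in any library. None of these lists held a called miRNA, and the part of each source in the family's reads was not tested.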

How the data were processed

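Libraries were made with the QIAseq miRNA kit, which tags molecules with unique molecular identifiers (UMIs), and sequenced on a NextSeq550. Per the study's methods and the submitters' notes, the authors trimmed reads with cutadapt 1.11, collapsed reads of the same UMI, mapped them with Bowtie2 2.2.2 to UMD3.1 and to miRBase, and scaled counts in edgeR by TMM. The deposited values are a normalized signal, 1 TMM-scaled read count per miRNA and library. Dividing by the value of 1 read recovered whole reads (100% within 0.01 reads). UMIs limit PCR duplicates, and Wilson, Poisson and floor values (95%, 3 reads) cover counting error only. All 15 pairs of libraries differed beyond sampling noise.

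limma 3.58.1 (R 4.3.3, lmFit and eBayes) was run on log2(value + 1) over all 512 miRNAs without filter or block, with Benjamini-Hochberg adjustment. A fold change on this scale understates that of rare miRNAs. Alternatives were edgeR 4.0.16 and DESeq2 1.42.0 on recovered reads, other pseudocounts, a filter, scalings, limma's trend, a replicate block and leaving out each library. Scripts were tested on simulated data. Ratios within libraries were compared by exact permutation (10 divisions, two-sided).

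The members, marker lists and cell cycle list were chosen with earlier results of these data known. The permutation tests that had been set for summed levels and shares, which combine members, are not given, and those values are descriptions. The p-values of ratios between 2 members are printed and carry the same limit, since the pairs were chosen from those members. miRNAs named are the members, their other arms, listed cell cycle miRNAs at an unadjusted p of 0.05 or less, the 5 miRNAs most like the family, and markers, with bta-miR-365-3p, bta-miR-34a, bta-miR-221, bta-miR-26a, bta-miR-103 and bta-miR-125b named outside this rule after their values were seen. Mature sequences and miRNAs with an offset seed were not analysed here. RefSeq genes of ARS-UCD2.0 gave neighbours only, since the authors mapped to UMD3.1.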

Additional observations from a re-analysis of the deposited data

How the results depend on the processing

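No member was called under any of the 16 alternatives to the limma comparison. Over all 512 miRNAs limma called 0, against 1 with pseudocount 0.5, 2 with limma's trend, 3 with edgeR's quasi-likelihood test under either set of factors, and 0 to 4 when 1 library was left out (4 without control-EVs replicate 2, 3 without HS-EVs replicate 2, 2 without HS-EVs replicate 1). Members at an unadjusted p of 0.05 or less numbered 0 to 2 on leaving out libraries. The 2 appeared without control-EVs replicate 1, where limma gave bta-miR-16b a log2 fold change of -0.74 (adjusted p = 0.555) and bta-miR-15b one of 0.55 (adjusted p = 0.576), and where 43 of the 512 miRNAs passed that level in place of 25. It was 12 of 204 miRNAs after the filter and 10 with DESeq2.

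Among recomputed fold changes of members 12 changed sign and 116 did not, all of them uncalled. The filter, limma's trend and the replicate block leave a member's fold change as it is. Their signs are among the 116 and could not change. Scaling by reads on all miRNAs but bta-miR-1246 gave 0.084 for bta-miR-15a and 0.032 for bta-miR-16a, and scaling by all reads gave -1.10 for bta-miR-15b. On leaving out 1 library the log2 fold change of bta-miR-15a ranged from -0.12 to 0.14 (above 0 without control-EVs replicate 3 or HS-EVs replicate 3), that of bta-miR-16a from -0.19 to 0.019 and of bta-miR-195 from -0.30 to 0.12 (above 0 without control-EVs replicate 2 or HS-EVs replicate 1), of bta-miR-497 from -0.34 to 0.17 and of bta-miR-424-5p from -0.28 to 0.11 (above 0 without HS-EVs replicate 3), and of bta-miR-503-5p from -0.61 to 0.17 (above 0 without HS-EVs replicate 1).

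Scaling by all reads moved the summed log2 difference to -1.86 for the family, -1.60 for miR-15a/16a, -1.96 for miR-15b/16b, -1.64 for bta-miR-195/bta-miR-497 and -1.65 for bta-miR-424/bta-miR-503, and the share of bta-miR-1246 enters these values by construction. The other 40 recomputed sums and all 96 recomputed shares moved by less than 1 SD between libraries. These counts include the replicate block, which leaves a difference between group means unchanged, so its values could not move. Uncalled signs changed for miR-15a/16a (0.0076 without control-EVs replicate 2, and 0.043 scaled by reads on all miRNAs but bta-miR-1246), bta-miR-195/bta-miR-497 (0.029 without control-EVs replicate 2 and 0.085 without HS-EVs replicate 1) and bta-miR-424/bta-miR-503 (0.0061 without HS-EVs replicate 3). The log2 ratio of bta-miR-195 to bta-miR-497 became -0.00043 with 0.5 reads added, and ranged from -0.35 (without HS-EVs replicate 3) to 0.31 as libraries were left out. That of bta-miR-15a to bta-miR-16a ranged from -0.13 (without HS-EVs replicate 1) to 0.21. The other 3 ratios kept their direction as libraries were left out.

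Same-numbered libraries deviated from their group means with correlations of 0.14, 0.14 and 0.079, so the numbers were not taken to pair the libraries. With the replicate block limma called 0 miRNAs, 30 had an unadjusted p of 0.05 or less, and the smallest adjusted p of a member was 0.835. Depth limits bta-miR-503-5p and bta-miR-15b most, with 2 and 15 reads in HS-EVs replicate 1.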

Other observations

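The ratio of bta-miR-16b to bta-miR-122 in reads was 0.327, 0.324 and 0.318 in control-EVs and 0.401, 0.448 and 0.493 in HS-EVs. The 3 control-EVs libraries lay within a narrow range although both miRNAs varied about 2-fold among them, and all HS-EVs libraries lay above it. The ratio was picked after its values were seen, out of 8 ratios of a miR-16 species to a marker miRNA, and carries no test. Of the other 7, none separated the groups. The 6 libraries divide into 3 and 3 in only 10 ways, so a full separation among 8 ratios can come about by chance. Among the 512 miRNAs, 6.45% had fully separated groups. bta-miR-16a to bta-miR-122 was 0.0678, 0.0439 and 0.0478 in control-EVs and 0.0612, 0.107 and 0.122 in HS-EVs.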
